A study of Saccharomyces cerevisiae with 22 samples.

Results

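Cultures of the yeast Saccharomyces cerevisiae fed 2.8% oxygen were compared with cultures fed 1% oxygen over the whole transcriptome. Every sample whose label gives one of these 2 oxygen levels was taken, which makes 10 of the 22 arrays in the series, 4 at 2.8% and 6 at 1%, and all 5449 genes were tested. The series measured steady-state, glucose-limited chemostats fed no oxygen, a restricted supply of 0.5, 1 or 2.8%, or the 20.9% of air, on Affymetrix Yeast Genome 2.0 arrays. The question put to these 2 levels is which transcripts differ as restricted oxygen supply is eased.

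Both groups were the strain CEN.PK113-1A, a haploid of mating type alpha with the alleles URA3, HIS3, LEU2, TRP1, MAL2-8c and SUC2, which needs no added amino acids or bases. Both grew in defined medium with glucose, ergosterol and a Tween detergent, the sterol and the source of unsaturated fatty acid that cells without oxygen cannot make, at one dilution rate, pH and temperature. The cultures at 2.8% oxygen, and not those at 1%, received a small addition of exponentially growing cells at the start of the feed, to prevent oscillations, so that this step and the oxygen level cannot be told apart. Per the study's methods the samples at 2.8% came from 2 cultivations with 2 samples each. At 1% there were 4 cultivations, 1 of which gave 4 samples, and replicates 2 to 7 were used (replicate 1 was not analysed here). Which samples share a chemostat is not in the labels, so the p-values measure the spread between samples, part of which is the spread between repeated samples of a culture. The labels of replicates 2 and 4 at 2.8% describe direct centrifugation, and all other labels describe collection in cold phosphate buffer.

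In yeast limited for glucose, the supply of oxygen sets how much of the sugar is respired and how much is fermented to ethanol. Ethanol, acetate and other non-fermentable compounds enter metabolism as acetyl-CoA, and the glyoxylate cycle and gluconeogenesis then build larger molecules from it. Genes of these routes are repressed by glucose and are switched on by the regulators Adr1 and Cat8, while the enzymes of fatty acid oxidation sit in the peroxisome and respond to Oaf1, Pip2 and Adr1. Oxygen itself is sensed largely through haem and sterols, whose synthesis needs it.

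Replicate 4 at 2.8% oxygen stood apart from the other samples. The standard deviation of its values about the group means, over all genes, was 0.322 on the log2 scale, against 0.142 to 0.164 in the other 3 samples at 2.8% and 0.0779 to 0.143 in the samples at 1%. It held the lowest or the highest of the 4 levels in 76.3% of the 93 called genes, against 76.7% of all genes. Counts that change without this sample are therefore given both ways. The array medians of all 22 arrays lay between 9.036 and 9.099, since the arrays had been normalised to a common distribution. Of the mating-type genes, STE3 and SAG1, which mark alpha cells, lay between 11.80 and 13.04 at 2.8% and between 11.87 and 13.05 at 1%. The genes that mark a cells, STE2, STE6, MFA1, MFA2 and BAR1, lay between 5.68 and 8.67 at 2.8% and between 5.46 and 8.23 at 1%, and none of these 7 genes was called. The levels of different probe sets cannot be set against each other, so these ranges serve as a description only.

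Between 2.8 and 1% oxygen, 93 genes were called at an adjusted p under 0.01 (limma, Benjamini-Hochberg over all genes), of which 42 were higher and 51 lower at 2.8%. These make 1.71% of all genes tested, with 0.771% higher and 0.936% lower. In each of the gene lists other than those of ribosomal proteins, that share amounts to less than 1 gene, so a count of 0 or 1 called says little about the list. Log2 changes are given throughout as 2.8% minus 1%, and the standard error (SE) comes from the same fit. Of the called genes 36 differed at least 2-fold, 19 higher and 17 lower, and the median fold among the 93 was 1.66. The samples of the 2 groups did not overlap in 90 of them, and over all genes the groups did not overlap in 9.71%. FET4, MSN4 and YGR067C were the called genes with overlapping samples. The genes named for the size of their change were taken from the 90, so that the absence of overlap in them was set by that choice. Without replicate 4 at 2.8%, 91 genes were called, 50 higher (0.918% of all genes) and 41 lower (0.752%), and 68 of them were among the 93. In a culture, a larger share of cells that carry a transcript and more of it in each cell cannot be told apart.

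**Figure D1:**
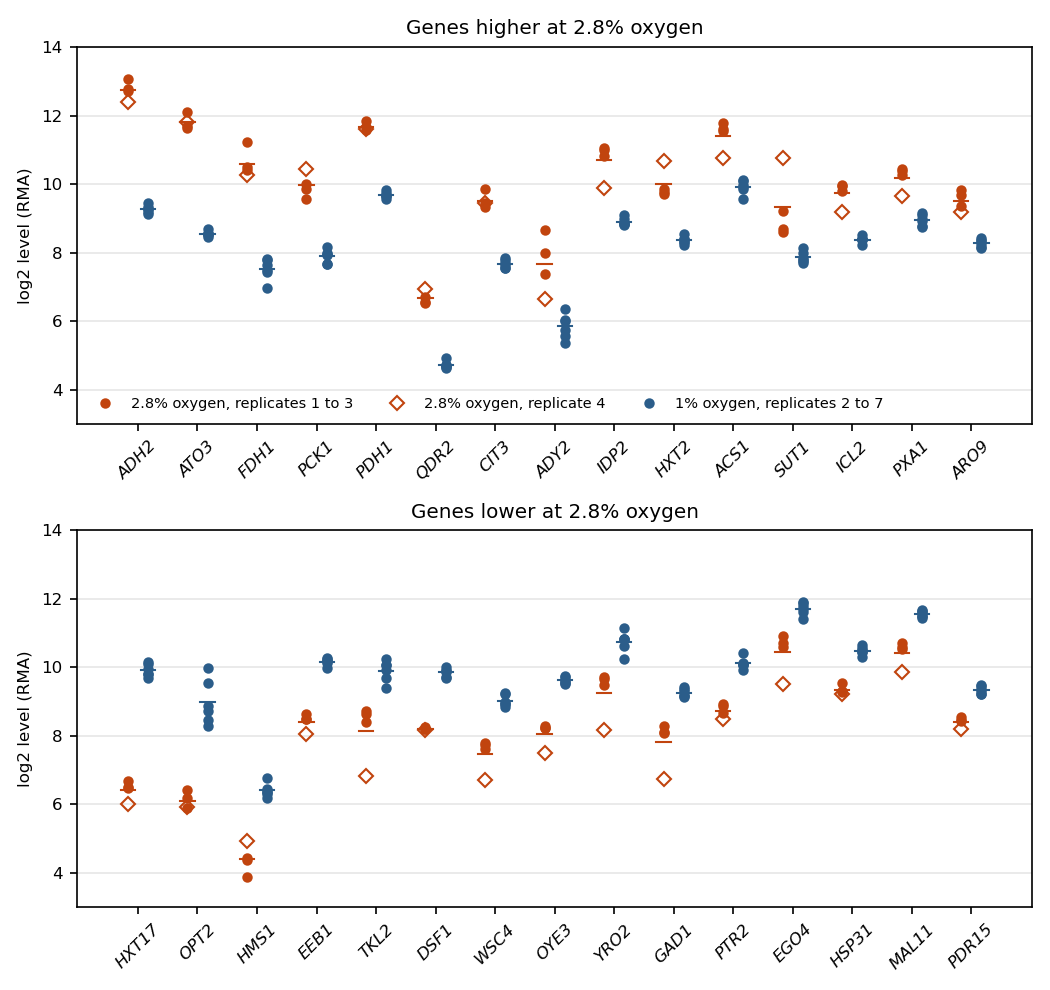
Log2 levels (RMA) of the 15 genes in each direction with the largest change among called genes that have a gene name and whose groups do not overlap, with each sample as a point and the group mean as a bar, 2.8% oxygen left of 1% oxygen in each pair. FET4, which fell by 1.18 on the log2 scale, more than some genes shown, is left out for its overlap. Replicate 4 at 2.8% (open diamonds) lies away from the other 3 samples in SUT1, TKL2 and GAD1, among others.

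Genes listed under the use of ethanol and acetate held the 2 largest rises, in ADH2 and ATO3. ADH2, the alcohol dehydrogenase that oxidises ethanol, stood at log2 levels of 12.73, 12.78, 13.07 and 12.40 in the 4 samples at 2.8% oxygen, against a lowest, median and highest level of 9.12, 9.28 and 9.45 in the 6 samples at 1%. The groups were far apart, by 3.47 on the log2 scale or 11.1-fold (SE 0.41, adjusted p = 1.4e-05). ACS1, the acetyl-CoA synthetase of cells that use acetate, had levels of 11.59, 11.54, 11.78 and 10.76 at 2.8%, against 9.56, 9.93 and 10.12 at 1%. It rose by 1.50 (SE 0.15, adjusted p = 1.9e-06), and its lowest value at 2.8% was that of replicate 4. Its paralogue ACS2, which is used on glucose, had a change of -0.07 (adjusted p = 0.58), and ADH1, the main fermentative alcohol dehydrogenase, one of 0.01 (adjusted p = 0.96).

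Transporter genes listed with ethanol and acetate use rose as well. ATO3, a plasma membrane protein of the acetate and ammonium transporter family, had levels of 11.69, 11.63, 12.10 and 11.80 at 2.8% and of 8.45, 8.53 and 8.67 (lowest, median, highest) at 1%. The spread within each group was small beside the difference between the groups. Its change of 3.26 had an SE of 0.09 and the smallest adjusted p of all genes (3.8e-16). ADY2, the acetate permease, varied more: its levels were 7.37, 8.66, 7.98 and 6.63 at 2.8%, against 5.35, 5.88 and 6.35 at 1%, a change of 1.82 (SE 0.39, adjusted p = 0.0076). The lowest sample at 2.8% lay only just above the highest at 1%. JEN1, the lactate and pyruvate permease, rose by 0.79 (SE 0.10, adjusted p = 2.3e-05), and ATO2, a relative of ATO3, by 0.53 (SE 0.11, adjusted p = 0.0052). Without replicate 4 the change in ATO2 was 0.50 with an adjusted p of 0.02. Of the 20 listed genes of ethanol and acetate use all were measured, 6 were higher, and 0 were lower. The median change was -0.03, against 0.01 over all genes, and without replicate 4 there were 5 higher and the median was 0.004. The list also holds ADH1 and the pyruvate decarboxylases PDC1, PDC5 and PDC6, which act in ethanol formation. Its median is therefore not one of genes of use alone. The mitochondrial and cytosolic acetaldehyde dehydrogenases ALD4 and ALD6 had changes of 0.24 (adjusted p = 0.016) and 0.12 (adjusted p = 0.52).

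Of the 16 listed genes of the glyoxylate cycle and gluconeogenesis 4 were higher and 0 lower, PCK1, IDP2, MDH2 and ICL2, of which ICL2 is also in the methylcitrate list and is counted in both. PCK1, whose product makes phosphoenolpyruvate from oxaloacetate, had levels of 9.57, 10.01, 9.86 and 10.44 at 2.8% oxygen, against 7.65, 7.93 and 8.16 at 1%, and rose by 2.08 (SE 0.31, adjusted p = 0.00023). Here replicate 4 was the highest sample. IDP2, the cytosolic isocitrate dehydrogenase that yields NADPH, had levels of 11.00, 11.04, 10.82 and 9.88 at 2.8%, against 8.81, 8.85 and 9.11 at 1% (change 1.79, SE 0.20, adjusted p = 8.1e-06). MDH2, the cytosolic malate dehydrogenase, had levels of 10.54, 10.58, 10.45 and 9.55, against 9.12, 9.19 and 9.23 (change 1.10, SE 0.18, adjusted p = 0.00066). In both genes replicate 4 was the lowest of the samples at 2.8% and still above every sample at 1%. The 2 enzymes particular to the cycle did not pass: ICL1, isocitrate lyase, had a change of 0.49 with overlapping groups (adjusted p = 0.38), and MLS1, malate synthase, one of 1.13 without overlap (SE 0.37, adjusted p = 0.1). FBP1, fructose-1,6-bisphosphatase, had a change of 0.58 (adjusted p = 0.29). The median change over the list was 0.46, and without replicate 4 there were 5 higher, the added one being ADR1 (change 0.49, adjusted p = 0.0073 without replicate 4, against 0.43 and 0.015 with it). CAT8, the other regulator of these genes, had a change of -0.19 (adjusted p = 0.29). YGR067C, an uncharacterised gene with a zinc finger outside the list, changed by 1.10 (adjusted p = 0.0078) although its groups overlapped, with levels of 9.10, 9.30, 8.74 and 7.91 at 2.8%, against 7.41, 7.60 and 8.09 at 1%.

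Of the 4 genes in the methylcitrate list 3 were called higher at 2.8% oxygen and 0 lower. The methylcitrate cycle turns propionyl-CoA into pyruvate in the mitochondrion. PDH1, a 2-methylcitrate dehydratase, had levels of 11.59, 11.66, 11.84 and 11.61 at 2.8%, against 9.56, 9.66 and 9.83 at 1%, and rose 3.97-fold (log2 change 1.99, SE 0.11, adjusted p = 1.5e-10). CIT3, the methylcitrate synthase, had levels of 9.33, 9.46, 9.84 and 9.44, against 7.55, 7.66 and 7.84 (change 1.84, SE 0.18, adjusted p = 8.4e-07). ICL2, the 2-methylisocitrate lyase and the gene shared with the list before, had levels of 9.81, 9.94, 9.97 and 9.19, against 8.21, 8.39 and 8.50 (change 1.35, SE 0.16, adjusted p = 1.2e-05). Replicate 4 was close to the other samples in PDH1 and CIT3 and lowest in ICL2. The list also holds PDR12, a plasma membrane exporter of weak acids such as propionate, which had a change of 0.44 (adjusted p = 0.034). Over the 4 genes the mean level was 10.8 to 11.2 in the samples at 2.8%, against 9.53 to 9.65 at 1%, with a median change of 1.59.

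FDH1, the NAD-dependent formate dehydrogenase, was the third largest rise. Its levels were 10.40, 10.50, 11.21 and 10.25 at 2.8% oxygen, against 6.96, 7.57 and 7.82 at 1%, and replicate 3 was the highest (change 3.07 or 8.37-fold, SE 0.30, adjusted p = 8.4e-07). It was the only one of 11 listed genes of formate and one-carbon metabolism to pass. The glycine cleavage genes GCV1, GCV2 and GCV3 had changes of 0.42, 0.69 and 0.24 with adjusted p from 0.011 (GCV2) to 0.15 (GCV3), each with samples at 2.8% above all those at 1%. Over all genes the groups did not overlap in 9.71%. The median change over the list was 0.24 with replicate 4 and 0.06 without it. The mean level over the list was 11.35, 11.40, 11.41 and 11.68 in replicates 1 to 4 at 2.8%, against 10.97 to 11.03 at 1%.

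All 26 measured genes of fatty acid oxidation had a change above 0, and 3 passed the test. PXA1, a subunit of the transporter that brings long-chain fatty acids into the peroxisome, had levels of 10.26, 10.43, 10.39 and 9.65 at 2.8% oxygen, against 8.75, 8.95 and 9.16 at 1% (change 1.24, SE 0.16, adjusted p = 3e-05). FAA2, a medium-chain acyl-CoA synthetase, had levels of 10.24, 10.31, 10.39 and 9.92, against 9.10, 9.34 and 9.53 (change 0.88, SE 0.15, adjusted p = 0.00084). YAT2, a carnitine acetyltransferase, had levels of 9.99, 10.09, 10.09 and 10.09, against 9.11, 9.20 and 9.42 (change 0.84, SE 0.15, adjusted p = 0.0013). The 4 samples at 2.8% agreed closely in YAT2, while replicate 4 was lowest in PXA1 and FAA2. The median change over the list was 0.42 with replicate 4 and 0.53 without it.

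The number of fatty acid oxidation genes called depended on replicate 4 at 2.8% oxygen. The mean level over the 26 genes was 10.35, 10.41, 10.50 and 9.93 in replicates 1 to 4 at 2.8%, against a lowest, median and highest of 9.78, 9.87 and 9.93 at 1%, so that replicate 4 lay level with the highest sample at 1%. Without it 11 of the 26 were called, all higher. CTA1, the peroxisomal catalase, had levels of 10.87, 11.01, 11.17 and 9.90 at 2.8%, against 9.67, 9.90 and 9.99 at 1%, and its change was 1.16 without replicate 4 (adjusted p = 0.00025) and 0.88 with it (adjusted p = 0.017). FOX2, the multifunctional beta-oxidation enzyme, had levels of 11.91, 12.01, 12.10 and 11.15, against 10.84, 11.17 and 11.33, and changes of 0.85 (adjusted p = 0.00046) and 0.64 (adjusted p = 0.024) without and with that sample. In POX1, the acyl-CoA oxidase of the first step, the changes were 0.75 (adjusted p = 0.0038) and 0.61 (adjusted p = 0.02). The other genes gained were TES1, ECI1, DCI1, PXA2 and PEX11, while the thiolase POT1 passed in neither (0.43 without and 0.10 with replicate 4). The regulators OAF1 and PIP2 had changes of 0.03 and 0.02 (adjusted p = 0.89 and 0.96). The list of peroxisome biogenesis, with 24 measured genes, had 0 called in either direction and a median of 0.05.

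**Figure D2:**
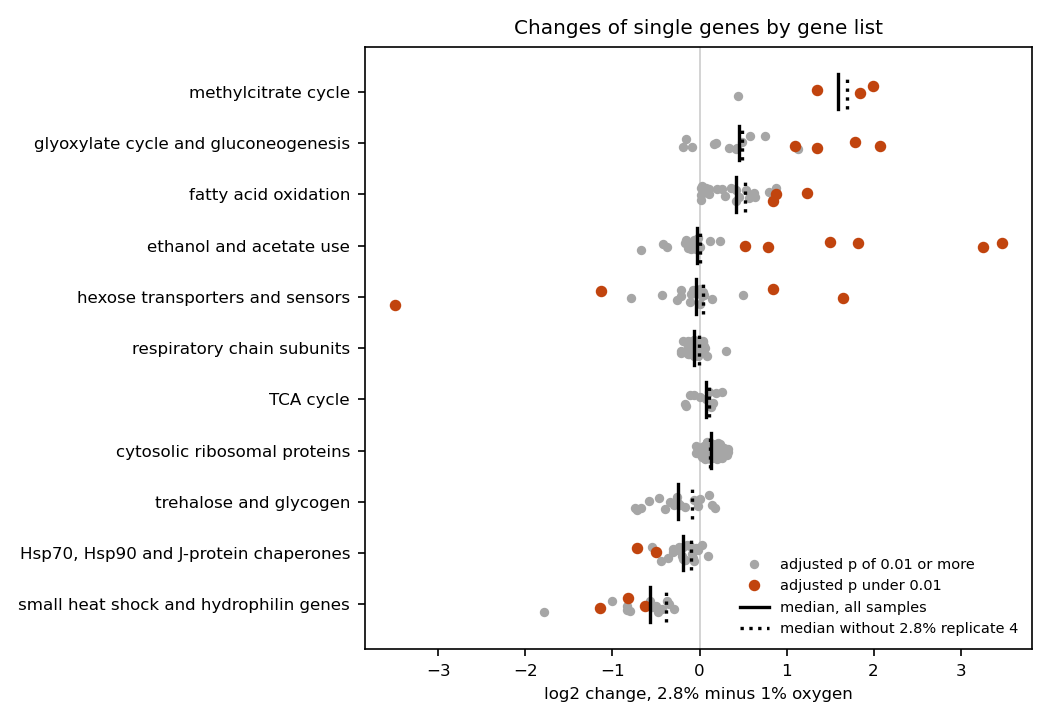
Log2 change (2.8% minus 1% oxygen) of each measured gene in 11 lists, with genes at an adjusted p under 0.01 in colour, the list median as a solid line and the median without 2.8% replicate 4 as a dotted line. The methylcitrate list has the highest median (1.59) and the small heat shock and hydrophilin list the lowest (-0.57), and respiratory chain and TCA cycle genes lie close to 0.

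Hexose transporters changed in both directions. HXT17, whose product carries hexoses and sugar alcohols, was the largest fall of all genes: its levels were 6.67, 6.46, 6.50 and 6.00 at 2.8% oxygen, against 9.67, 9.87 and 10.15 at 1% (change -3.50, an 11.3-fold difference, SE 0.26, adjusted p = 1.2e-08). DSF1, a relative of mannitol dehydrogenases, was nearly the same in all samples of a group, with levels of 8.20, 8.18, 8.24 and 8.17 at 2.8%, against 9.69, 9.86 and 10.01 at 1% (change -1.64, SE 0.12, adjusted p = 1.1e-08). The probe sets of HXT17 and DSF1 match several transcripts, so closely related copies may add to their values. HXT13, a close relative of HXT17, had a change of -0.78 with levels of 3.99, 4.11, 4.21 and 4.11, against 4.54, 4.95 and 5.15, near the low end of the array's range, which begins at 3.53 (adjusted p = 0.1).

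HXT2, a high-affinity glucose transporter, was higher at 2.8% oxygen, with levels of 9.85, 9.76, 9.71 and 10.68, against 8.21, 8.35 and 8.53 at 1% (change 1.64, SE 0.23, adjusted p = 0.00012). Replicate 4 was the highest sample, and without it the change was 1.42. RGT2, a glucose sensor of the plasma membrane, had levels of 8.67, 8.93, 8.94 and 9.23, against 7.91, 8.08 and 8.27 (change 0.84, SE 0.12, adjusted p = 0.00013), and the sensor SNF3 had a change of 0.15 (adjusted p = 0.5). HXT7, the main transporter of glucose-limited cells, whose probe set also matches a near-identical copy, had a mean of 13.32 at 2.8% and of 13.30 at 1% (adjusted p = 0.89). Of the 20 measured transporters and sensors 2 were higher (HXT2 and RGT2) and 2 lower (HXT17 and MAL11). MAL11, the alpha-glucoside transporter, had levels of 10.71, 10.53, 10.58 and 9.84, against 11.43, 11.55 and 11.66 (change -1.13, SE 0.22, adjusted p = 0.0041), and its adjusted p was 0.022 without replicate 4. IMA1, an isomaltase, fell by 0.54 (adjusted p = 0.0069), and MPH2, a maltose permease homologue with a near copy in the genome, rose by 0.69 (adjusted p = 2.8e-05) at levels of 5.87 and 5.18 on average at 2.8 and 1%.

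Other membrane transporters fell or rose singly. OPT2, of the oligopeptide transporter family, had levels of 5.90, 6.17, 6.40 and 5.91 at 2.8% oxygen, against 8.27, 8.79 and 9.96 at 1%, where the samples were widely spread (change -2.87, SE 0.49, adjusted p = 0.00084). PTR2, the importer of di- and tripeptides, had levels of 8.93, 8.65, 8.87 and 8.48, against 9.91, 10.07 and 10.42 (change -1.38, SE 0.17, adjusted p = 2.7e-05). Of 26 listed amino acid and peptide permeases and their regulators 3 were lower, PTR2, SAM3 for S-adenosylmethionine (-0.66, adjusted p = 0.0023) and TAT1 for aromatic and branched-chain amino acids (-0.55, adjusted p = 0.00084). The number higher was 0, and the median was 0.02 with replicate 4 and -0.07 without it.

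QDR2, a drug and cation exporter, was the opposite case, at 6.56, 6.53, 6.71 and 6.94 at 2.8% oxygen, against 4.64, 4.70 and 4.93 at 1% (change 1.96, SE 0.14, adjusted p = 5.7e-09). The levels at 1% are near the low end of the array's range, so the fold of 3.89 may be understated. PDR15, an ABC transporter of the drug resistance network, had levels of 8.54, 8.41, 8.46 and 8.20, against 9.20, 9.32 and 9.47 (change -0.93, SE 0.11, adjusted p = 9.2e-06). TPO1, a polyamine exporter, fell by 0.70 (SE 0.07, adjusted p = 1.9e-06), and SPE3, spermidine synthase, rose by 0.44 (SE 0.07, adjusted p = 0.00027). Both kept their calls without replicate 4 (adjusted p = 1e-05 for TPO1 and 0.0014 for SPE3).

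Of 17 listed genes for taking up iron 2 were lower. FET4, a low-affinity iron transporter, had levels of 4.71, 4.84, 4.84 and 5.91, against 5.82, 6.31 and 6.59, and replicate 4 overlapped the samples at 1% (change -1.18, SE 0.19, adjusted p = 0.00066, and -1.46 without replicate 4). SMF1, a transporter of manganese and other divalent metals, fell by 0.43 (adjusted p = 0.0033, and 0.013 without replicate 4). The high-affinity pair FET3 and FTR1 had changes of 0.16 and 0.10 (adjusted p = 0.83 and 0.74). The median over the list was 0.10, and without replicate 4 it was 0.04 and FET4 alone was called.

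Of 17 measured small heat shock and hydrophilin genes 3 were lower at 2.8% oxygen, HSP31, YGP1 and HSP12, and 0 were higher. The other 14 did not pass, and all 17 had a change below 0. HSP31, a chaperone and glyoxalase, had levels of 9.27, 9.31, 9.54 and 9.20 at 2.8%, against 10.29, 10.47 and 10.64 at 1% (change -1.15, SE 0.15, adjusted p = 5.9e-05), and it was nearly as low in replicates 1 and 2 as in replicate 4. HSP12, a membrane-stabilising hydrophilin, had levels of 13.57, 13.63, 13.85 and 13.01, against 14.08, 14.16 and 14.18 (change -0.63, SE 0.11, adjusted p = 0.0012). YGP1, a secreted glycoprotein made on nutrient limitation, had levels of 11.88, 11.85, 12.09 and 10.91, against 12.30, 12.51 and 12.65 (change -0.82, adjusted p = 0.0076, and 0.02 without replicate 4). The median change over the list was -0.57 with replicate 4 and -0.39 without it, when 2 genes passed. The mean level over the list was 10.32, 10.52, 10.55 and 9.44 in replicates 1 to 4 at 2.8%, against 10.69, 10.95 and 11.11 (lowest, median and highest) at 1%.

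YRO2, a membrane protein related to the heat shock protein Hsp30, had levels of 9.46, 9.66, 9.72 and 8.15 at 2.8% oxygen, against 10.22, 10.82 and 11.14 at 1% (change -1.49, SE 0.26, adjusted p = 0.0012). GAD1, glutamate decarboxylase, had levels of 8.28, 8.12, 8.07 and 6.73, against 9.11, 9.24 and 9.43 (change -1.45, SE 0.21, adjusted p = 0.00017). TKL2, the minor transketolase, had levels of 8.41, 8.62, 8.72 and 6.82, against 9.39, 9.98 and 10.24 (change -1.75, SE 0.28, adjusted p = 0.0006). In these 3 genes replicate 4 was lowest by more than 1 on the log2 scale, and the other 3 samples at 2.8% were still below every sample at 1%. Without replicate 4 the changes were -1.13 in YRO2, -1.10 in GAD1 and -1.30 in TKL2, all still called. TKL1, the main transketolase, had a change of 0.23 (adjusted p = 0.53), and SOL3, a 6-phosphogluconolactonase, rose by 0.51 (adjusted p = 0.00059).

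Of 24 listed Hsp70, Hsp90 and J-protein chaperones 2 were lower, SSA4, a heat-induced Hsp70 (-0.72, adjusted p = 0.0043, and 0.022 without replicate 4), and MDJ1, a mitochondrial J-protein (-0.50, adjusted p = 0.0011, and 0.0062 without). Of 18 trehalose and glycogen genes 0 passed, with a median of -0.25, and of -0.09 without replicate 4. That sample's mean over the trehalose and glycogen genes was 9.63, against 10.26 to 10.32 in the other samples at 2.8% and 10.29 to 10.50 at 1%.

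**Figure D3:**
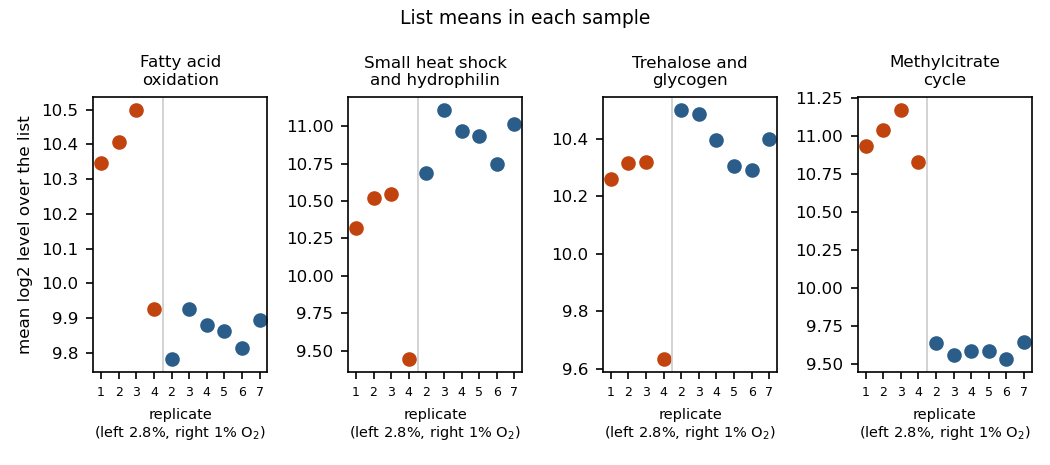
Mean log2 level (RMA) over 4 gene lists in each sample, with replicates 1 to 4 at 2.8% oxygen left of the line and replicates 2 to 7 at 1% oxygen right of it; each panel has its own axis. Replicate 4 at 2.8% lies below the other 3 samples at 2.8% in fatty acid oxidation (9.93 against 10.35 to 10.50) and in small heat shock and hydrophilin genes (9.44 against 10.32 to 10.55), and near them in the methylcitrate cycle.

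Among the other large falls were WSC4, OYE3 and EEB1. WSC4, of the family of cell wall stress sensors, had levels of 7.61, 7.77, 7.74 and 6.70 at 2.8% oxygen, against 8.84, 8.95 and 9.26 at 1% (change -1.57, SE 0.17, adjusted p = 4e-06). OYE3, an NADPH oxidoreductase of the old yellow enzyme family, had levels of 8.23, 8.23, 8.27 and 7.49, against 9.50, 9.60 and 9.73 (change -1.55, SE 0.19, adjusted p = 2.3e-05), and its paralogue OYE2 had a change of -0.25 (adjusted p = 0.53). EEB1, which makes ethyl esters of medium-chain fatty acids, had levels of 8.48, 8.62, 8.47 and 8.04, against 9.98, 10.17 and 10.25 (change -1.76, SE 0.18, adjusted p = 1.9e-06). Replicate 4 was the lowest sample at 2.8% in each of the 3. In the lists that hold them, OYE3 was the only one of 30 genes of oxidant defence called, and EEB1 the only one lower of 13 genes of aromatic and branched-chain amino acid use. Without replicate 4 the oxidant defence list had 1 higher, CTA1, and 2 lower.

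EGO4, a small protein of unknown function, had levels of 10.59, 10.92, 10.69 and 9.51 at 2.8% oxygen, against 11.41, 11.74 and 11.89 at 1% (change -1.28, SE 0.21, adjusted p = 0.00059). GPP2, a glycerol-3-phosphatase, fell by 0.73 (adjusted p = 0.00093), and its paralogue GPP1 had a change of 0.13 (adjusted p = 0.79). ENO1, one of the pair of enolases, fell by 0.42 (adjusted p = 0.0025, and 0.012 without replicate 4) and was the only one of 20 glycolytic genes to pass, while its paralogue ENO2 had a change of -0.04 (adjusted p = 0.72). SCS7, a sphingolipid hydroxylase that uses oxygen, fell by 0.53 (SE 0.08, adjusted p = 0.00014).

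Among genes of amino acid use, ARO9, an aromatic aminotransferase, had levels of 9.36, 9.68, 9.83 and 9.19 at 2.8% oxygen, against 8.13, 8.30 and 8.41 at 1% (change 1.24, SE 0.17, adjusted p = 0.00011). ARO10, the decarboxylase that acts after it, had a change of 0.51 with overlapping groups (adjusted p = 0.52). ALT2, a paralogue of alanine transaminase, had levels of 8.72, 8.82, 9.23 and 8.83, against 7.78, 7.80 and 8.15 (change 1.04, SE 0.12, adjusted p = 5.6e-06). PUT1, the mitochondrial proline oxidase, rose by 0.59 (adjusted p = 0.007), but its adjusted p was 0.027 without replicate 4.

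Several transcription factors differed. SUT1, which controls sterol uptake under low oxygen, had levels of 8.58, 8.70, 9.22 and 10.77 at 2.8% oxygen, against 7.69, 7.80 and 8.12 at 1% (change 1.46, SE 0.27, adjusted p = 0.0019). Replicate 4 was more than 1.5 above the next sample, and without it the change was 0.98 (adjusted p = 9.3e-05). Its paralogue SUT2 rose by 0.52 at levels of 8.25, 8.11, 8.29 and 8.24, against 7.54, 7.67 and 7.89, with no sample apart (SE 0.08, adjusted p = 0.0004). HMS1, a helix-loop-helix factor of filamentous growth, had levels of 3.87, 4.36, 4.42 and 4.92, against 6.18, 6.36 and 6.75 (change -2.0, SE 0.15, adjusted p = 1.1e-08). The levels at 2.8% were near the low end of the array's range, so the 4.01-fold difference may be understated.

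PHD1, another factor of filamentous growth, fell by 0.53 (adjusted p = 0.00032), and its paralogue SOK2 rose by 0.54 (adjusted p = 0.0075, and 0.037 without replicate 4). RSF2, a zinc-finger factor of growth on glycerol, had levels of 9.90, 9.87, 9.83 and 9.94 at 2.8% oxygen, against 10.35, 10.44 and 10.57 at 1% (change -0.57, SE 0.07, adjusted p = 1.6e-05). EDS1, an uncharacterised zinc-cluster factor, fell by 0.54 (adjusted p = 0.00032). MSN4, a general stress factor, fell by 0.49 (adjusted p = 0.0036) with replicate 4 inside the range at 1% (8.72, 8.83, 9.21 and 9.35, against 9.34, 9.51 and 9.67). Of 15 measured haem and oxygen regulators SUT1 alone was called, and the list's median was -0.06 with replicate 4 and -0.09 without it. HAP1, HAP4 and ROX1, the main haem-linked regulators, had changes of -0.15, -0.31 and -0.12 (adjusted p = 0.55, 0.088 and 0.75).

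Calls in either direction numbered 0 in the lists of the respiratory chain, TCA cycle, haem, sterols, and DAN, TIR and PAU genes. Over all genes 1.71% passed, so that in lists of 9 to 39 genes this count is near the share over all genes. The 39 subunits of the respiratory chain had a median change of -0.07 with replicate 4 and of -0.004 without it, and the 11 measured TCA cycle genes one of 0.08 with it and 0.11 without. COX5B, the hypoxic form of cytochrome oxidase subunit V, lay outside the respiratory chain list and fell by 0.56 (levels 7.27, 7.29, 7.31 and 6.65 at 2.8%, against 7.58, 7.70 and 7.79 at 1%, adjusted p = 0.0066, and 0.021 without replicate 4), while the aerobic form COX5A had a change of -0.07 (adjusted p = 0.72). Of the 7 listed hypoxic partners of paralogue pairs COX5B alone was called, and the list's median was -0.13. Without replicate 4 that median was -0.07 and 0 were called. The median was -0.22 over 9 genes of haem synthesis and breakdown and -0.03 over 30 genes of ergosterol synthesis and sterol uptake (-0.20 and -0.05 without replicate 4). Over the 19 measured DAN, TIR and PAU genes, for cell wall proteins of anaerobic cells, it was -0.26, and -0.22 without that sample. At this number of samples smaller changes in these lists may not have been detectable.

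Of 128 cytosolic and 70 mitochondrial ribosomal protein genes 0 were called. The cytosolic genes had a median change of 0.13 with 125 above 0 (0.12 without replicate 4), and the mitochondrial genes one of -0.09 with 63 below 0 (median -0.05 without it). The mean level over the cytosolic genes was 12.584, 12.542, 12.376 and 12.561 in replicates 1 to 4 at 2.8%, against 12.281 to 12.465 at 1%. Replicate 3 thus lay within the range at 1%. Over the mitochondrial genes the means were 10.157, 10.158, 10.106 and 10.004, against 10.158 to 10.233. Many of the cytosolic genes are near-identical pairs, whose probe sets can pick up both copies. Of 33 measured genes of the pheromone response 1 was higher, PRM4, a pheromone-regulated membrane protein (0.73, adjusted p = 9.5e-05), with a median of 0.05, and of -0.007 without replicate 4.

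Over the 5 oxygen levels the genes named fell into several shapes, given here as means without a test. ADH2 had mean levels of 7.67, 8.92, 9.27, 12.74 and 14.07 at 0%, then 0.5%, 1%, 2.8% and finally 20.9% oxygen, ATO3 9.83, 8.41, 8.54, 11.81 and 13.18, and FDH1 5.34, 5.84, 7.53, 10.59 and 13.80. In all 3 the mean at 2.8% lay between those at 1 and 20.9%. HXT2 had means of 10.75, 7.86, 8.36, 10.00 and 12.36, with its lowest level at 0.5%. QDR2 had means of 4.98, 4.66, 4.72, 6.68 and 5.42, and MPH2 of 4.62, 4.84, 5.18, 5.87 and 4.95. In both the mean at 2.8% was above those at the other 4 levels. PCK1 (means 9.62, 8.08, 7.89, 9.97 and 8.91) was also highest at 2.8%, close to its mean at 0%.

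The genes that were lower at 2.8 than at 1% oxygen did not all stay low at 20.9%. HXT17 had mean levels of 8.06, 10.01, 9.91, 6.41 and 6.11 at 0%, then 0.5%, 1%, 2.8% and finally 20.9% oxygen, and HMS1 of 8.40, 7.01, 6.40, 4.39 and 4.55. In both the means at 2.8 and 20.9% were close to each other. PTR2 had means of 10.22, 10.22, 10.11, 8.73 and 6.98, with the lowest at 20.9%. TKL2 had means of 6.90, 10.25, 9.89, 8.14 and 12.16, YRO2 of 8.60, 11.02, 10.74, 9.25 and 12.36, and GAD1 of 8.21, 9.68, 9.25, 7.80 and 10.02. These 3 were highest at 20.9% and dipped at 2.8% against both of its neighbours.

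**Figure D4:**
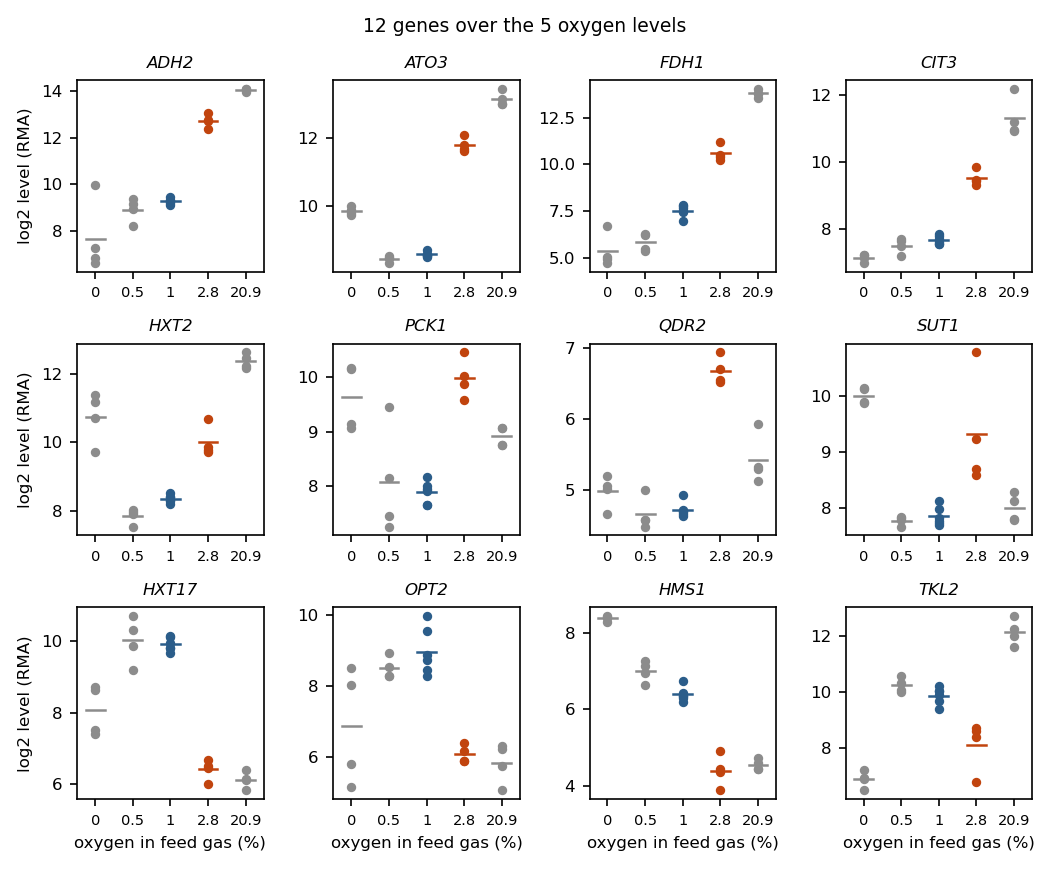
Log2 levels (RMA) of 12 of the genes at 0%, then 0.5%, 1%, 2.8% and finally 20.9% oxygen, with each sample as a point and the mean as a bar; each panel has its own axis. ADH2, ATO3, FDH1 and CIT3 step up between 1 and 2.8% and again at 20.9%, QDR2 has its highest samples at 2.8%, and TKL2 dips at 2.8% with replicate 4 lowest.

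Of the 93 genes, 57 were called whichever 1 of the 10 arrays was left out. Of the 64 called genes given with values above, 50 were. The other 14 were ADY2, ATO2, COX5B, ENO1, IMA1, MAL11, MSN4, PUT1, SAM3, SMF1, SOK2, SSA4, YGP1 and YGR067C, each of which lost its call without at least 1 array, at either level. Their highest adjusted p with 1 array left out ran from 0.011 for SAM3 to 0.046 for ADY2 and YGR067C, and the direction of the change stayed the same. For ENO1 the only such array was replicate 4 at 2.8%. YHR033W, a gene of unknown function that kept its call in each of these fits, had levels of 10.18, 10.10, 10.44 and 10.16 at 2.8%, against 11.11, 11.29 and 11.38 at 1% (change -1.04, SE 0.14, adjusted p = 4.4e-05). Without the 2 directly centrifuged samples 23 of the 64 genes lost their call. With the replicate number added to the fit as a block 39 of them did.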

How the data were processed

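RNA from 22 steady-state chemostat samples was hybridised to Affymetrix Yeast Genome 2.0 arrays. Per the study's methods the authors normalised the scans with Robust Multichip Average (RMA), and the deposited values are log2 levels for 5716 probe sets. RMA brings all arrays to one distribution, so a shift shared by all genes cannot be seen, and levels near background are compressed. Probe sets were named through GEO's platform annotation and RefSeq: 5498 had 1 gene and 218 none, and for the 47 genes with several probe sets 1 was kept, by kind of probe set, which gave 5449 genes. The closest copies in the genome can share a probe set.

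The 5 oxygen levels were fitted together with limma 3.58.1 (R 4.3.3) without covariates, and 2.8% minus 1% oxygen was tested with Benjamini-Hochberg adjustment over all genes at 0.01, as in the study's methods. The fit was also run on simulated data, drawn as independent normal values with the spread of each gene. They held no outlying array and no repeated samples of a culture, so that run says nothing about either. The 10 arrays here limit the precision. The genes named were the 15 in each direction with the largest change among called genes that have a gene name and no overlap, and members of 43 gene lists. ALT2, EDS1, IMA1, MPH2, RSF2, SCS7, SOK2, SPE3, SUT2, TPO1, YGR067C and YHR033W lie outside this rule and were chosen after their values were seen. The comparison, its members and the lists were chosen with earlier results of these data known. Alternatives covered the samples, the probe sets, the normalisation, the filter and the variance model, and 2 were added after seeing the data. Promoter motifs and sequences were not analysed here.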

Additional observations from a re-analysis of the deposited data

Results flagged for a closer look

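Among the genes given with values, 194 groups of 4 or 6 samples were examined for a sample that stands far from the others of its group, measured as its gap to the nearest sample divided by the range. This was so in 20 groups, of which 14 were replicate 4 at 2.8% oxygen. Chance alone gives about 1 in 20 groups when the groups are not selected. The groups here are not independent, since they share samples, and their genes were chosen from these same values. The count therefore cannot be set against that rate.

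In 10 of the 14 replicate 4 at 2.8% oxygen was the lowest sample. Its log2 level was 6.65 in COX5B, against 7.27 to 7.31 in the other 3 samples at 2.8%. It was 6.73 in GAD1 (others 8.07 to 8.28), 6.81 in TKL2 (others 8.41 to 8.72) and 8.15 in YRO2 (others 9.46 to 9.72). It was 7.49 in OYE3 (others 8.23 to 8.27), 6.70 in WSC4 (others 7.61 to 7.77) and 8.78 in SSA4 (others 9.17 to 9.23). In the peroxisomal genes it was 9.26 in POT1 (others 10.52 to 10.61) and 11.34 in POX1 (others 11.90 to 11.93), and in MDH2 it was 9.55 (others 10.45 to 10.58). It was the highest sample in FET4 (5.91, others 4.71 to 4.84), GPP1 (12.25, others 11.44 to 11.54), HXT2 (10.68, others 9.71 to 9.85) and SAM3 (9.70, others 9.44 to 9.48). The label of this sample describes direct centrifugation, as does that of replicate 2 at 2.8%. The part of collection in these values was not tested.

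The lowest sample in YAT2 was replicate 1 at 2.8%, at 9.99 against 10.09 in the other 3 samples. At 1% oxygen replicate 2 was the highest sample in ALT2 (8.15, others 7.78 to 7.84), FBP1 (8.47, others 7.95 to 8.12), PHD1 (13.05, others 12.70 to 12.80) and PTR2 (10.42, others 9.91 to 10.10), and replicate 5 in QDR2 (4.93, others 4.64 to 4.72).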

How the results depend on the processing

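Of 93 genes called, 42 higher and 51 lower at 2.8% oxygen, 36 were called under every other fit except the replicate block, 21 with the block as well, and no called gene changed sign. The filter on dim genes tested 4087 of the 5449 genes and kept 78 of the 93 calls. Genes it left untested could not count among the 36 or the 21. ADY2, ARO9, COX5B, QDR2 and HMS1 were among those left untested. Counts moved by over 1.5 times in some fits. Adding the replicate number as a replicate block gave 25 called, 11 higher and 14 lower. Deviations of same-numbered samples correlated at -0.176, 0.123 and -0.068 in replicates 2, 3 and 4, the only ones checked. Of these samples at 2.8%, 0 of 3 correlated best with its own number. Within 2.8%, the deviations of replicate 4 correlated at -0.742, -0.83 and -0.533 with those of replicates 1, 2 and 3. The deviations of the other samples at 2.8% thus partly mirror replicate 4. The check therefore cannot decide whether the numbers pair the samples. With only the 2 oxygen levels in the fit 159 were called (73 higher, 86 lower), and with quantile normalisation of those 10 arrays, fitted alone, 152 (73 and 79). Without the 2 directly centrifuged samples 49 were called (26 and 23), 45 of them among the 93. Array weights, which gave replicate 4 at 2.8% a weight of 0.133, called 859 (428 and 431). Of the alternatives added after seeing the data, the 2 levels alone and no replicate 4 at 2.8% called 354 (181 and 173), and a threshold of 0.05 called 216 (102 and 114). With 1 array left out 68 to 91 were called, 31 to 50 higher and 37 to 45 lower. The cause of these differences was not tested. At the unadjusted p under 0.05 there were 888 genes. Over the 97 genes given with values and all alternatives, 165 of 2025 gene-by-alternative results lost the call, 41 gained it and 0 called genes reversed. Precision is limited by 2 cultivations at 2.8%.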
